A study of Mus musculus with 5 samples.

Results

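S100 proteins and annexins are the subject here: 10 genes of the 27729 in the deposited tables, of which 6 are S100 genes (S100a4, S100a6, S100a10, S100a11, S100a13 and S100a16) and 4 are annexin genes (Anxa1, Anxa2, Anxa3 and Anxa5). The members were chosen by the value of S100a6, which was much lower on day 14 than on day 0, so the values of that comparison are given as a description only. All 10 genes were detected in every library and passed the filter on low counts, as did 13346 genes in all. Mouse embryonic fibroblasts (MEFs) of the ICR strain, the connective tissue cells of mouse embryos, were kept in medium with serum until day 0. They were then moved to a serum-free medium that converts them towards neuron-like cells, and RNA was sequenced on day 0 and again after 2, 5, 10 and 14 days. The labels name this medium 6C, and the publication calls it 5C, a DMEM/F12 base with the N2 supplement, vitamin C, 2-mercaptoethanol, bFGF and leukemia inhibitory factor. The labels name no genetic change and no vector, and by the study's methods the embryos' heads and internal organs had been removed before the fibroblasts were prepared. The labels give 5000 cells per well, and they name day 15 in the treatment text but day 14 as the time of the last library. There was 1 library per day, so no difference between days has a replicate check, no p-value is given, and words such as higher and lower describe these libraries.

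S100 proteins are small calcium sensors built from a pair of EF-hand loops, the helix-loop-helix folds that hold calcium, and they mostly work as dimers. Calcium opens a surface on the dimer that binds other proteins, among them myosin, ubiquitin ligase adaptors and annexins. S100a10 is the exception, since its loops no longer bind calcium and it stays in the binding state. Annexins carry a different calcium-binding fold and attach to the inner face of membranes when calcium rises. A dimer of S100 proteins can hold a pair of annexins and so link membranes or anchor proteins beneath them. Fibroblasts are known for high levels of several of these genes, and S100a4 is also called fibroblast-specific protein 1.

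All of the S100 members lie on mouse chromosome 3, in the order S100a13, S100a16, S100a4, S100a6, S100a11 and S100a10. The sequence before the start of a gene is shown for members that moved in different ways, so that the windows can be read against the values given further on. RefSeq windows of 300 bases around annotated starts (250 bases before and 50 after, build GRCm38.p6) were found for 8 of the 10 members. S100a10 and Anxa3 had no entry. The part of each window that lies before the gene itself is printed, 5′ to 3′ on the plus strand. Capitals mark a match to 1 of 3 motifs. The TATA box was spelled TATAAA, the AP-1 motif was spelled TGANTCA and the GC box of the Sp1 family was spelled GGGCGG. The TEAD motif, spelled CATTCC, was searched as well. Both strands were searched, and no matches overlapped.
S100a6 (chr3:90612644-90612881): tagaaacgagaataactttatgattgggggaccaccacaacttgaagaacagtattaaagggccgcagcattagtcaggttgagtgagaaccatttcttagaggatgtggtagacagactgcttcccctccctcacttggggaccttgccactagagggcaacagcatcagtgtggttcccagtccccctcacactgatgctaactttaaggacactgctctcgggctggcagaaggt
S100a4 (chr3:90603520-90603769): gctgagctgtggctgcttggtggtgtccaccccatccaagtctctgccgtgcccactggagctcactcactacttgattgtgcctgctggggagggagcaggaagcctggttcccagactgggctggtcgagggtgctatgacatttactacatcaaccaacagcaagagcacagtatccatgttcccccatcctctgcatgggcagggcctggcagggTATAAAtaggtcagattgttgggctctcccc
S100a11 (chr3:93520246-93520487): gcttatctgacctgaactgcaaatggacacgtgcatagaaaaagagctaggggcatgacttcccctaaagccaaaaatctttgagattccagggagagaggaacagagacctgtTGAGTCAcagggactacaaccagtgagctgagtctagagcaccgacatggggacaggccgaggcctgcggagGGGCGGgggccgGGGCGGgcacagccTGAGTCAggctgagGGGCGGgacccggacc
S100a16 (chr3:90537004-90537253): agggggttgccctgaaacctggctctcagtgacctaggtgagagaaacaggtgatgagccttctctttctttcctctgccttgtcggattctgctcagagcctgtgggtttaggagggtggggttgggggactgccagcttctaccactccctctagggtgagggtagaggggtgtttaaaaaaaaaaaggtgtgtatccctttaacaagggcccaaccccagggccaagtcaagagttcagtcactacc
Anxa2 (chr9:69453433-69453619): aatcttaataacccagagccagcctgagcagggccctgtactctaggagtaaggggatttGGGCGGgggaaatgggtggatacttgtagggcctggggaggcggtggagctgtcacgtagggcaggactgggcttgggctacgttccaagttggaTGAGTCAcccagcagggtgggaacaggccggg

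S100a6 and the S100a16 start shown had no match to the 4 motifs in their windows. A further annotated start of S100a16 had 1 AP-1 motif and 1 GC box. S100a4 had 1 TATA box. S100a11 had 2 AP-1 motifs and 3 GC boxes, and Anxa2 had 1 TATA box, 1 AP-1 motif and 3 GC boxes, not all of them before the gene. Among the 8 members with a window, 3 held a TATA box, 3 an AP-1 motif, 3 a GC box and 1 a TEAD motif. Of 32851 windows of the same length, 13.6% held TATAAA, 7.81% TGANTCA, 35.7% GGGCGG and 14.7% CATTCC. A match is a run of letters and not a measured binding site.

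The libraries held 2253748 to 3890334 expected counts, which are the estimated numbers of reads per gene. A level of 3 counts corresponded to 0.771 to 1.33 per 1000000 counts. The day 2 library was the shallowest, and 4.79% of its counts fell on the single gene Gm42418, against 0.0484% to 0.109% elsewhere. All 9 fibroblast markers were detected on day 0, with a summed level of 3051 TPM, a level corrected for gene length and scaled to 1000000 per library. Rbfox3, which marks mature neurons, was listed at 0 in all libraries. In bulk RNA, fewer cells of a type and less RNA per cell cannot be told apart.

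Together the 10 members made up 4.04% of all TPM at the start, 4.58% on day 2 and 1.62% on day 5, and then 1.04% and 1.28% on days 10 and 14. The S100 members carried most of this, with 3.48% at the start, a peak of 4.32% on day 2 and a low of 0.685% on day 10. The annexin members held 0.558% at the start, dropped to 0.262% on day 2 and stood at 0.471% on day 14. The S100 share therefore peaked on day 2 and the annexin share was lowest on that day. The plot of levels by day shows the 10 genes apart.

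**Figure D1:**
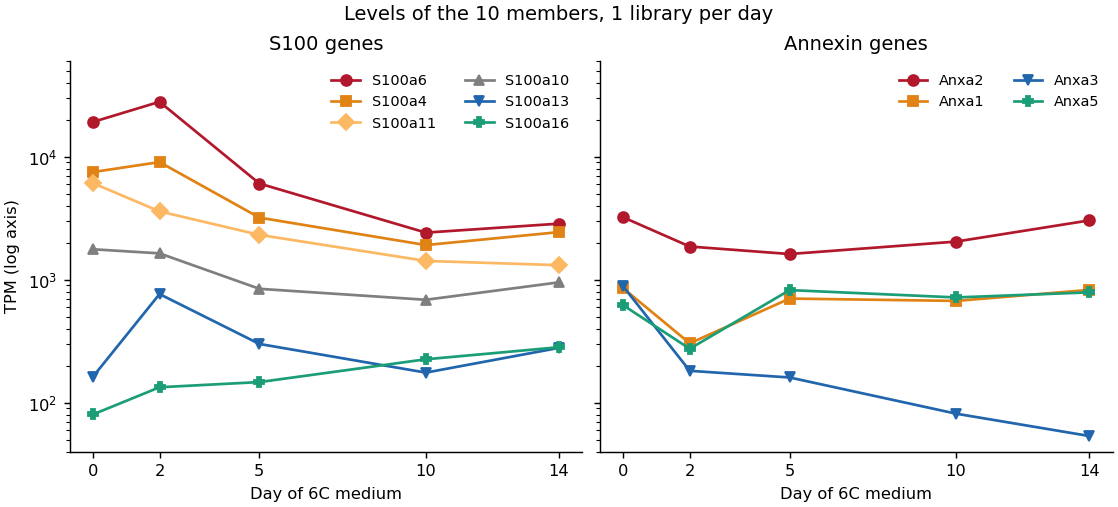
Level of each S100 and annexin member in TPM (log axis) in the single library of each day, with one line per gene. S100a6 started as the highest gene of all at 19197 TPM and ended at 2860, below Anxa2 at 3039, while Anxa3 went from 884 to 53.7 TPM.

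S100a6, or calcyclin, which binds the calcyclin-binding protein Cacybp and is abundant in dividing fibroblasts, had by far the highest level of the group at the start. In TPM its level was 19197 at the start, 27988 at day 2, 6061 at day 5, 2418 at day 10 and finally 2860.2 at day 14, which placed it at ranks 1, 2, 11, 28 and 27 of all genes in these libraries. In counts normalized between libraries it gave 38044 before the medium was changed, 65491 at day 2 and 7426 at day 5, and later 2172 at day 10 and 3128 at day 14. It was higher on day 2 than on day 0 and lower in the 3 later libraries, though quantile normalization put its day 2 change at 0. The log2 change from day 0, which is the ratio of normalized counts with a pseudocount of 1, was 0.78 (95% interval 0.76 to 0.80) on day 2. It was −2.36 (95% interval −2.39 to −2.32) on day 5, −4.13 (95% interval −4.18 to −4.08) on day 10 and −3.60 (95% interval −3.65 to −3.55) on day 14. These intervals are exact Clopper-Pearson intervals of the counts and cover counting error only. S100a6 was thus 17.5-fold lower on day 10 and 12.2-fold lower on day 14. On day 10 the log2 change was −2.99 with TPM and −2.37 against genes of like length, and on day 14 these values were −2.75 and −2.32. The largest step lay between day 2 and day 5, at −3.14, and from day 10 to day 14 it was 0.53 higher.

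S100a4, which binds nonmuscle myosin and is known for its part in cell motility, followed S100a6 in shape with a smaller range. It had normalized counts of 8624 at day 0, 12642 at day 2 and 2393 at day 5, then 1178 at day 10 and 1626 at day 14. These were again highest on day 2 and lowest on day 10. The log2 change from day 0 was 0.55 (95% interval 0.51 to 0.60) on day 2, −1.85 (95% interval −1.91 to −1.79) on day 5, −2.87 (95% interval −2.95 to −2.80) on day 10 and −2.41 (95% interval −2.48 to −2.33) on day 14. Its reads may include some of the predicted gene Gm42674, which overlaps it on the same strand. Within a library, S100a6 had 4.41 (95% interval 4.31 to 4.52) counts for each count of S100a4 on day 0. This ratio was 5.18, 3.10 and 1.84 in the next 3 libraries and 1.92 (95% interval 1.82 to 2.04) on day 14. The change of such a ratio does not depend on the scaling between libraries, and by day 14 S100a6 was 2.29-fold further below its start than S100a4.

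S100a11 and S100a10 are the S100 proteins best known for binding annexins, S100a11 with Anxa1 and S100a10 with Anxa2. S100a11 had normalized counts of 8371 at the start, 5739 at day 2, 1985 at day 5, 899 at day 10 and finally 1005 at day 14. It was lower than on day 0 in every later library, unlike S100a6 and S100a4. Its log2 change was −0.54 (95% interval −0.60 to −0.49) on day 2, −2.08 (95% interval −2.14 to −2.01) on day 5, −3.22 (95% interval −3.31 to −3.13) on day 10 and −3.06 (95% interval −3.15 to −2.97) on day 14. S100a11 has a processed pseudogene, so some of its reads may have been divided between both copies.

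S100a10 had normalized counts of 3275 before the medium was changed, 3638 at day 2 and 978 at day 5, and later 588 at day 10 and 990.5 at day 14. Its day 2 value was close to day 0 (and just below it with TPM, at −0.11), day 10 was the lowest, and day 14 returned to the level of day 5. The log2 change was 0.15 (95% interval 0.07 to 0.23) on day 2, −1.74 (95% interval −1.84 to −1.64) on day 5, −2.48 (95% interval −2.59 to −2.37) on day 10 and −1.72 (95% interval −1.82 to −1.63) on day 14.

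S100a13, which takes part in the release of growth factors that lack a signal peptide, was highest on day 2. Normalized, its counts came to 321 at day 0, 1780.2 at day 2 and 366 at day 5, then 157 at day 10 and 304 at day 14. The day 2 library stood 5.54-fold above day 0, a log2 change of 2.47 (95% interval 2.29 to 2.66), and no other member stood as far above day 0 on any day. On day 5 the change was 0.19 (95% interval −0.02 to 0.41) and on day 14 it was −0.08 (95% interval −0.30 to 0.15), and both intervals include no change, while genes of like length put it at 1.19 and 1.21 above their median. On day 10 it was −1.02 (95% interval −1.28 to −0.78), just past 2-fold, but 0.11 with TPM in place of normalized counts.

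S100a16 is a widely expressed member of the family. By normalized counts it was the only one of the 10 above day 0 on day 14 with an interval that leaves out no change. Its normalized counts were 242 at the start, 498 at day 2, 242 at day 5, 257 at day 10 and finally 402 at day 14. The log2 change was 1.03 (95% interval 0.78 to 1.29) on day 2, −0.00 (95% interval −0.25 to 0.25) on day 5, 0.08 (95% interval −0.15 to 0.32) on day 10 and 0.73 (95% interval 0.50 to 0.96) on day 14. Days 2 and 14 were thus above day 0, and the intervals of days 5 and 10 include no change. With TPM, days 5 and 10 were also above it, at 0.87 and 1.48. On day 14, TPM placed S100a13 and Anxa5 above day 0 as well, at 0.78 and 0.35.

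Anxa2, which forms a complex with S100a10 and binds plasminogen and its activator at the cell surface, was the most abundant annexin in every library. Its normalized counts were 13059 before the medium was changed, 9094 at day 2 and 3957 at day 5, and later 3682 at day 10 and 6597 at day 14. They were lowest on days 5 and 10 and 0.84 higher on the log2 scale on day 14 than on day 10. The log2 change from day 0 was −0.52 (95% interval −0.57 to −0.47) on day 2, −1.72 (95% interval −1.77 to −1.67) on day 5, −1.83 (95% interval −1.87 to −1.78) on day 10 and −0.99 (95% interval −1.03 to −0.94) on day 14, where it was just short of 2-fold. The day 14 value was −0.08 with TPM, −0.12 with quantile normalization and −0.55 when centred on genes of like length.

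Anxa1, which restrains phospholipase activity and signals through formyl peptide receptors, had its lowest TPM on day 2. Anxa1 had normalized counts of 3917 at day 0, 1361 at day 2 and 1903 at day 5, then 1269.9 at day 10 and 1794 at day 14. All later libraries lay below day 0, and their order was not that of time. The log2 change was −1.52 (95% interval −1.64 to −1.41) on day 2, −1.04 (95% interval −1.12 to −0.97) on day 5, −1.62 (95% interval −1.71 to −1.54) on day 10 and −1.13 (95% interval −1.20 to −1.05) on day 14. With TPM the last 3 values were −0.28, −0.34 and −0.05, all within 2-fold, and on day 14 total counts, quantile normalization and length centring gave −0.77, −0.51 and −0.85.

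Anxa5, the annexin used as a probe for exposed phosphatidylserine on dying cells, had normalized counts closer to day 0 than the other annexin members from day 5 on, which did not hold with TPM on days 5 and 14. The values were 2945 at the start, 1561 at day 2, 2394 at day 5, 1521 at day 10 and finally 2046 at day 14. The log2 change was −0.92 (95% interval −1.03 to −0.81) on day 2, −0.30 (95% interval −0.37 to −0.22) on day 5, −0.95 (95% interval −1.03 to −0.87) on day 10 and −0.53 (95% interval −0.60 to −0.45) on day 14. With TPM, day 2 was at −1.17, past 2-fold, and days 5, 10 and 14 lay above day 0, at 0.41, 0.21 and 0.35. With DESeq2 size factors day 10 was at −1.01.

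Anxa3, a further membrane-binding annexin, had the lowest log2 change of all members on every later day and was lower in each library than in the one before. Its normalized counts were 3986 before the medium was changed, 982 at day 2 and 444 at day 5, and later 164 at day 10 and 132 at day 14. The log2 change was −2.02 (95% interval −2.15 to −1.89) on day 2, −3.16 (95% interval −3.30 to −3.03) on day 5, −4.59 (95% interval −4.80 to −4.41) on day 10 and −4.90 (95% interval −5.16 to −4.68) on day 14, or 29.9-fold. Its rank among all genes by TPM went from 148 on day 0 to 3493 on day 14. The step from day 10 to day 14 was −0.31, while the other 9 members were higher on day 14 than on day 10 by normalized counts. For S100a11 this step was 0.16, and it turned to −0.11 with TPM and −0.32 when centred on genes of like length. With the same centring the steps of S100a4 and S100a6 were −0.01 and 0.05, against 0.47 and 0.53 by normalized counts.

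**Figure D2:**
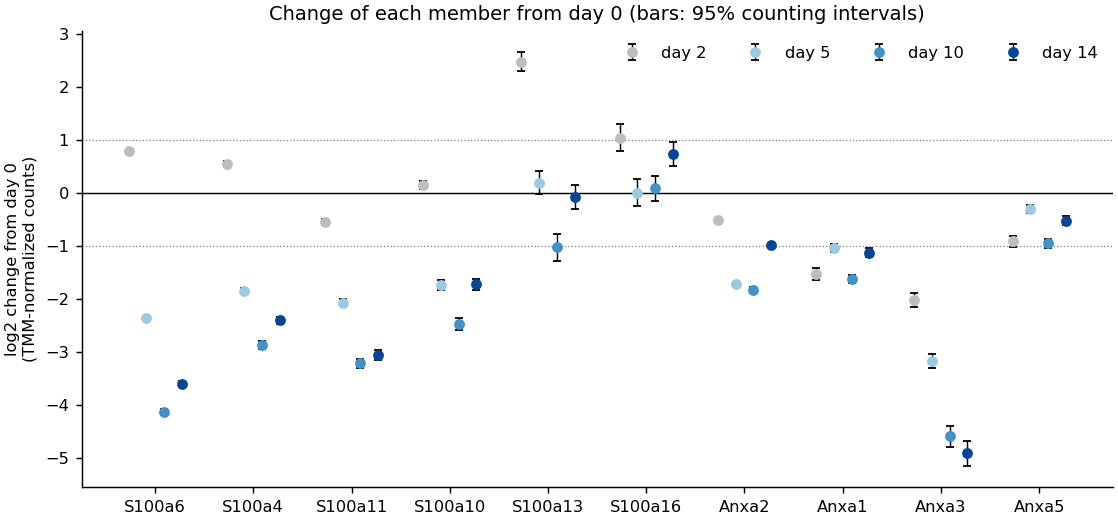
Log2 change of each member from day 0, from TMM-normalized counts with a pseudocount of 1, in the libraries of days 2, 5, 10 and 14, with 95% counting intervals as error bars. S100a13 stands at 2.47 on day 2, and Anxa3 and S100a6 reach −4.90 and −3.60 on day 14, while S100a16 is at 0.73.

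Counted against a 2-fold threshold, 2 members were above day 0 on day 2 (S100a13 and S100a16), where 15.2% of all genes tested were, and 2 were below (Anxa1 and Anxa3), where 13.1% were. On day 5, 0 were above and 7 were below, with 20.2% and 13.6% of all genes tested. On day 10, 0 were above and 8 below, with 28.7% and 22.3% of all genes tested, and on day 14, 0 were above and 6 below, with 24.5% and 19.9%. The median log2 change of the 10 members was −0.19, −1.73, −2.15 and −1.43 on days 2, 5, 10 and 14. Over all genes tested it was −0.03, 0.05, 0.14 and 0.07 on the same days. The S100 and annexin members went apart on day 2, with medians of 0.67 over the 6 S100 members and −1.22 over the 4 annexin members. By day 10 these medians were −2.67 and −1.73 by normalized counts. The shortest 668 genes tested, which include all S100 members but S100a16, had a median of −1.76 on day 10. The medians of the S100 and annexin members thus do not compare genes of like length, and length-centred medians were not computed for them apart. From one library to the next, 8 members were over 2-fold lower and 0 higher on day 5 than on day 2, where 12.5% of all genes tested were lower and 19.0% higher. On day 10 against day 5, 5 members were lower and 0 higher, with 9.50% and 12.8% of all genes tested. On day 14 against day 10, 0 were lower and 0 higher, with 8.33% and 4.73%. These step counts depend on the scaling. With TPM, 3 members were lower and 2 higher on day 5 than on day 2 and 1 was lower and 0 higher on day 10 than on day 5, and centred on genes of like length 3 and then 2 were lower and 0 higher. On day 14 against day 10 the counts were 0 and 0 in these settings too. By normalized counts the exceptions between day 2 and day 5 were Anxa1 and Anxa5, which were 0.48 and 0.62 higher. The counts against day 0 depend on the scaling as well. With TPM, and centred on genes of like length, 4 members in place of 6 were below on day 14. The day 14 counts include the comparison that chose the group, and all comparisons with day 0 share its library.

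Scaling matters for the smaller changes. With TPM, the median change of all genes tested moved by 0.56 on day 5, 0.95 on day 10 and 0.72 on day 14. TPM placed 1055, 4269, 7057 and 5548 genes tested over 2-fold above day 0 on the 4 later days and 1875, 531, 904 and 930 below, against 2023, 2690, 3826 and 3268 above and 1745, 1821, 2974 and 2657 below by normalized counts. Relative to the median gene, S100a6 on day 14 lay between −3.67 and −3.28 over the main scaling and 9 alternatives other than length centring. Settings that change only the size factor of a library nearly cancel out of this difference, so the range mainly shows TPM and quantile normalization. With length centring S100a6 was at −2.32. The same range was −4.97 to −4.44 for Anxa3, −3.13 to −2.29 for S100a11, −2.48 to −1.63 for S100a4 and 0.65 to 1.02 for S100a16. For Anxa2 it was −1.06 to −0.09, and for S100a13 and Anxa5 it ran across 0, at −0.15 to 0.11 and −0.60 to 0.09.

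Gene length moved with these changes. The mean length of the gene behind a counted read was 2279 bases at the start and 2127, 2657, 3351 and 2955 bases on days 2, 5, 10 and 14. Of the 668 genes tested in the shortest twentieth (107 to 803 bases), 50%, 70.2% and 60.5% were over 2-fold below day 0 on days 5, 10 and 14. S100a4, S100a6, S100a10, S100a11 and S100a13 belong to this twentieth. Against its median, S100a6 was at −2.32 on the log2 scale on day 14, with 31 genes of the twentieth lower and 636 higher. S100a11 was at −1.77, S100a4 at −1.12 and S100a10 at −0.44, while S100a13 was at 1.21. S100a16, in the next twentieth, was at 1.53. The annexin members are longer, and Anxa3 stood at −4.63 against 667 genes of like length, of which 3 were lower. The part of gene length in the changes of the S100 members was not tested further. S100a6 and S100a13 have transcripts of nearly the same length, 719 and 715 bases, and S100a13 went from 0.00843 counts per count of S100a6 on day 0 to 0.0972 (95% interval 0.0867 to 0.109) on day 14.

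**Figure D3:**
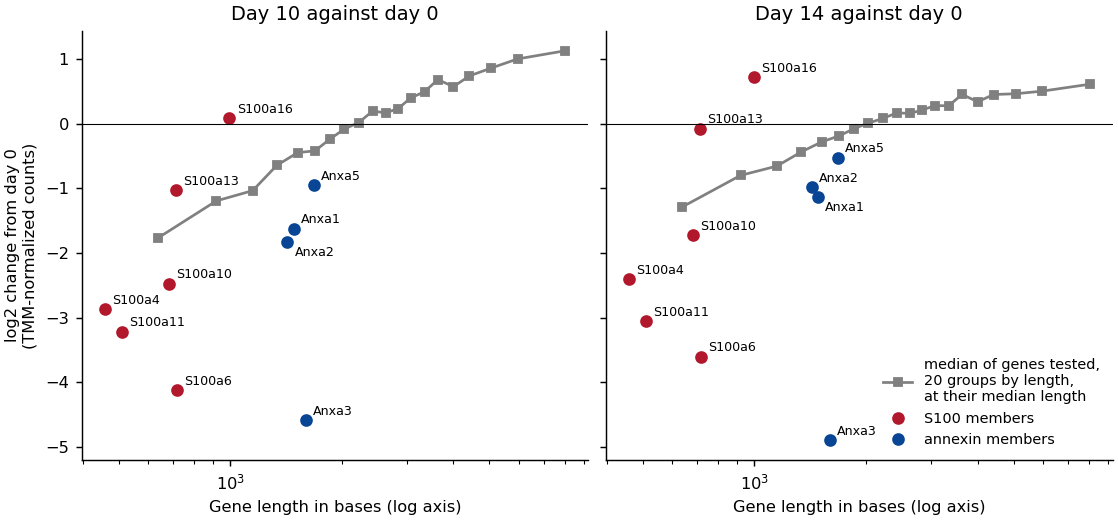
Log2 change from day 0 against gene length in bases (log axis) on day 10 and day 14, with the median of all genes tested in 20 groups of like length as squares. The S100 members sit at the short end, where the median is −1.76 on day 10 and −1.29 on day 14. S100a6 and Anxa3 lie below the medians of their length and S100a13 and S100a16 above.

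Ratios within a library show how the makeup of the group shifted. Per count of Anxa2, S100a6 gave 2.91 at day 0, 7.20 at day 2 and 1.88 at day 5, then 0.590 at day 10 and 0.474 at day 14. Corrected for length, the ratio of their TPM was 5.96 on day 0, 1.18 on day 10 and 0.941 on day 14, so S100a6 was the lower of the pair in the last library alone. Per count of its partner Anxa2, S100a10 gave 0.251 at the start, 0.400 at day 2, 0.247 at day 5, 0.160 at day 10 and finally 0.150 at day 14, a decline of 1.67-fold by day 14 after a rise on day 2. Per count of its partner Anxa1, S100a11 gave 2.14 before the medium was changed, 4.22 at day 2 and 1.04 at day 5, and later 0.708 at day 10 and 0.560 at day 14, 3.82-fold lower on day 14 than on day 0. In both pairs the count ratio was highest on day 2. That of S100a11 to Anxa1 was below its start from day 5 on. That of S100a10 to Anxa2 was close to its start on day 5 and below it from day 10 on. The genes of a pair differ in length, and relative to genes of like length S100a10 stood above Anxa2, at −0.71 against −1.18 on day 10 and −0.44 against −0.55 on day 14. Anxa3 gave 0.305 at day 0, 0.108 at day 2 and 0.112 at day 5, then 0.0446 at day 10 and 0.0201 at day 14 per count of Anxa2, a 15.2-fold decline. The ratio of Anxa5 to Anxa1 was 0.752 at the start, 1.15 at day 2, 1.26 at day 5, 1.20 at day 10 and finally 1.14 at day 14, and it stayed nearly the same from day 2 on.

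**Figure D4:**
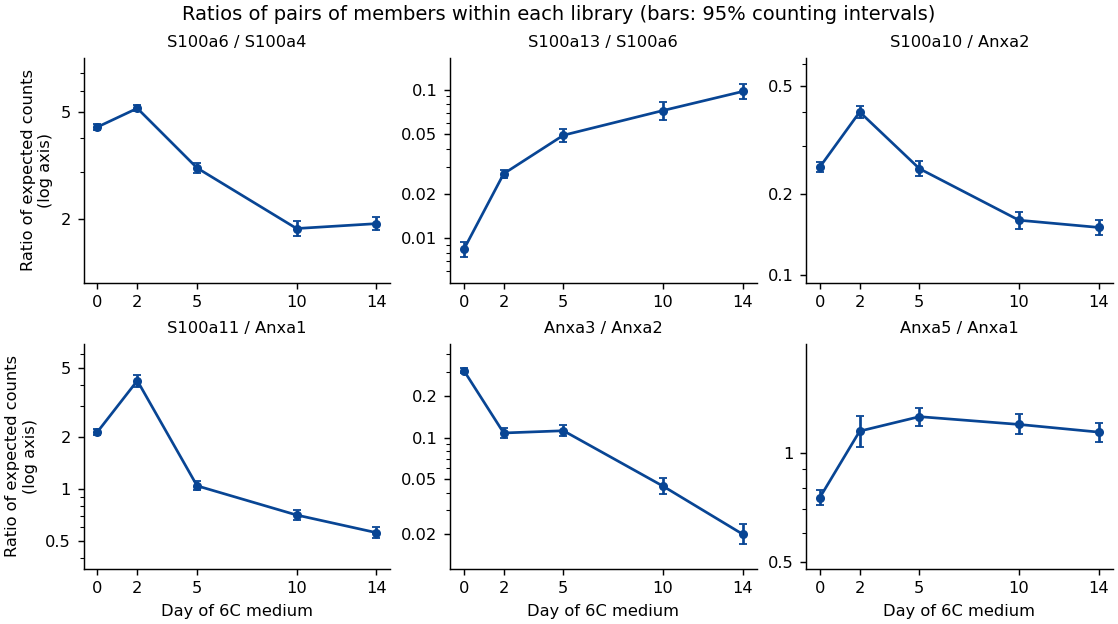
Ratio of expected counts of pairs of members within each library (log axis) by day, with 95% counting intervals. The ratio of S100a6 to S100a4 is 4.41 on day 0 and 1.92 on day 14. That of S100a13 to S100a6 climbs from 0.00843 to 0.0972, while that of Anxa5 to Anxa1 stays between 1.14 and 1.26 from day 2 on.

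The positions of the S100 members allow neighbours to be compared (GRCm38 throughout, matched to GENCODE M21). S100a6 (ENSMUSG00000001025, chr3:90612882-90624181, plus strand) and S100a4 (ENSMUSG00000001020, chr3:90603771-90606045, plus strand) lie with S100a5 between them, which had at most 3 counts in any library. Both S100a6 and S100a4 were below day 0 from day 5 on. S100a13 (ENSMUSG00000042312, chr3:90514435-90524581, plus strand) and S100a16 (ENSMUSG00000074457, chr3:90537254-90543151, plus strand) lie on their proximal side, at −98.4 and −75.6 kb from the start of S100a6. By normalized counts both were within 2-fold of day 0 on day 14. S100a11 (ENSMUSG00000027907, chr3:93520488-93526287, plus strand) and S100a10 (ENSMUSG00000041959, chr3:93555080-93564643, plus strand) lie 2908 and 2942 kb on the other side. By normalized counts they were over 2-fold below day 0 on day 14. The annexin members are spread over the genome, with Anxa1 (ENSMUSG00000024659, chr19:20373428-20390944, minus strand), Anxa2 (ENSMUSG00000032231, chr9:69453620-69491795, plus strand), Anxa3 (ENSMUSG00000029484, chr5:96793339-96845966, plus strand) and Anxa5 (ENSMUSG00000027712, chr3:36448923-36475894, minus strand). Between S100a16 and S100a4 lies S100a3, which had 16, 14, 3, 1 and 0 expected counts in the 5 libraries. Beyond S100a6 lies S100a7a, with 30, 4, 4, 4 and 8. S100a1, which starts head to head with S100a13, was higher than on day 0 in every later library, with log2 changes of 1.41, 1.26, 0.68 and 1.06. The kit does not mark strand, so reads at the joint start of S100a1 and S100a13 could come from either. S100a3 and S100a7a were named after their values were seen, since their counts are low. Of 6 genes tested within 200 kb of either end of the cluster around S100a6 that belong to neither family, 1 was over 2-fold above day 0 on each later day (Slc27a3) and 0 were below. All 6 start on the proximal side, at −223 to −103 kb from the start of S100a6, and the other side held none.

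**Figure D5:**
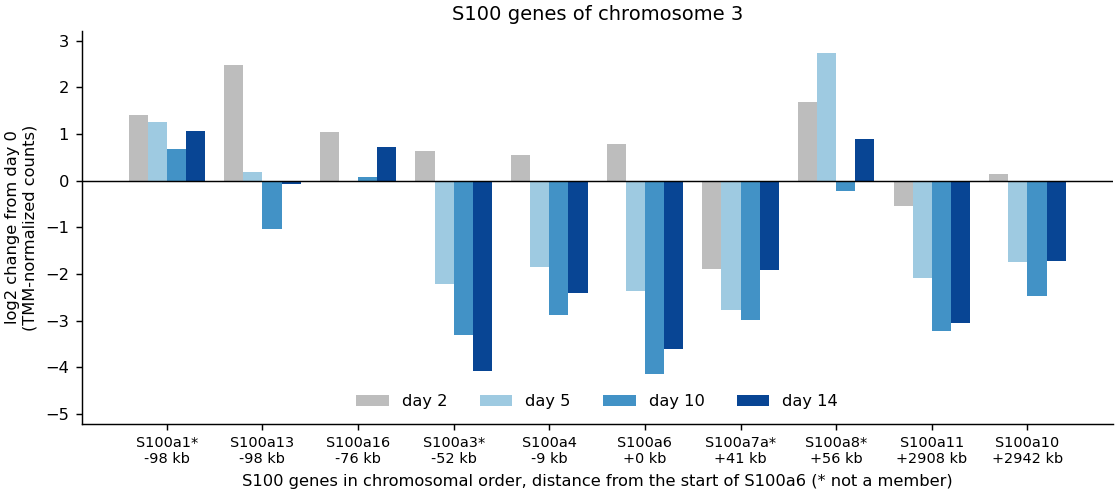
Log2 change from day 0 of the S100 genes tested on chromosome 3, in chromosomal order with the distance from the start of S100a6 in kb, with a bar for each later day. S100a4 and S100a6 are below 0 from day 5 on and S100a1 and S100a16 are above 0 on day 14. The bars of S100a3, S100a7a and S100a8 rest on at most 30 counts in any library, and that of S100a3 on day 14 on 0 counts.

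By the root mean square difference of log2 changes over the 4 later days, the genes closest to S100a6 among 8272 with 100 or more counts in at least 1 library were Gm8730 (0.240), Fau (0.284), Gm4262 (0.321), Nme1 (0.348) and Gm20390 (0.464). Fau encodes a ubiquitin-like fusion with a ribosomal protein and Nme1 a nucleoside diphosphate kinase. RSEM divides reads between near-identical copies, so the values of the 3 predicted genes are uncertain. The closest member was S100a11, at rank 43, followed by S100a4 at rank 53.

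Further genes of both families were counted as well. S100a2, which had at most 1 count in any library, was not on the lists. Of 10 other S100 genes on the lists and in the tables, 5 passed the filter. On day 14, 2 were over 2-fold above day 0 and 2 below, against 24.5% and 19.9% of all genes tested. S100b, a marker of glia and Schwann cells that was named after its values were seen, had 8, 9, 22, 87 and 85 expected counts, a log2 change of 3.11 (95% interval 2.22 to 4.52) on day 14. The inflammatory genes S100a8 and S100a9 had at most 14 and 0 counts in any library. Of 8 other annexin genes, 6 passed the filter. On day 14, 2 were over 2-fold above day 0 and 1 below, against the same 24.5% and 19.9%. Anxa6, the large annexin with a doubled core, had normalized counts of 1557 before the medium was changed, 1299 at day 2 and 939 at day 5, and later 1264 at day 10 and 2599 at day 14, and its log2 change was 0.74 (95% interval 0.65 to 0.83) on day 14. Those of Anxa8 were 484 at day 0, 423 at day 2 and 617 at day 5, then 171 at day 10 and 129 at day 14, with a log2 change of −1.90 (95% interval −2.19 to −1.64) on day 14. Anxa11 was listed at 14.8 normalized counts on day 0 and at 0 on day 2, and had 184, 165 and 176 in the last 3 libraries, a log2 change of 3.49 (95% interval 2.81 to 4.43) on day 14. Anxa4 and Anxa7 stayed within 2-fold on every day by normalized counts, but not by TPM, where Anxa4 went from 45.0 on day 0 to 127 on day 5 and Anxa7 from 63.1 on day 0 to 151 on day 14.

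Of 23 partners and receptors of these proteins, 18 passed the filter, with a median of −0.36 on day 14. On that day 2 of the 18 were over 2-fold above day 0 and 4 below, against 24.5% and 19.9% of all genes tested. Those below were Plaur, the urokinase receptor, at −1.89 (95% interval −2.26 to −1.56), Sugt1, a chaperone cofactor that binds S100a6, at −1.43 (95% interval −1.66 to −1.21), Cacybp at −1.30 (95% interval −1.54 to −1.06) and Myh9, the heavy chain of nonmuscle myosin bound by S100a4, at −1.16 (95% interval −1.24 to −1.08). Those above were both plasminogen activators, Plat at 3.12 (95% interval 2.75 to 3.56) and Plau at 1.22 (95% interval 0.93 to 1.52). Plat had normalized counts of 57.4 at the start, 143 at day 2, 357 at day 5, 449.9 at day 10 and finally 508 at day 14, above day 0 in every later library. Ahnak, the giant scaffold held by the complex of S100a10 and Anxa2, was at −1.17 on day 5 and −0.44 on day 14. Fpr1 and Fpr2, receptors of Anxa1, had at most 2 counts in any library, and Ager, a receptor of secreted S100 proteins, at most 23.

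Markers of several cell types moved over the same days. The summed TPM of the 9 fibroblast markers was 3051, 2396, 8100, 13529 and 12808 in the 5 libraries in order of time, with 0 markers at 0. The 11 macrophage markers summed to 66.1, 546, 1819, 1370 and 874, with Ptprc and Cd5l listed at 0 on day 0. The 9 markers of Schwann cells and neural crest summed to 15.5, 17.2, 220, 2205 and 2206, with Gjc3 at 0 on day 0. The 8 epithelial markers went from 158 on day 0 to 17.6 on day 14, with Cdh1, Epcam and Krt5 at 0 on day 0, and the 5 endothelial markers from 23.0 to 2.64. The 8 pan-neuronal markers stood between 52.7 and 120. The fibroblast sum was lower on day 2 and higher from day 5 on than at the start, but its genes did not move together. On day 14, 4 of the 9 were over 2-fold above day 0 and 1 below, against 24.5% and 19.9% of all genes tested. Their median log2 change by normalized counts was 0.91, and the values ran from −1.39 to 5.91. Among them, Col3a1 was at 3.87, Postn at 2.66 and Dcn at 4.86. Thy1 was at −1.39, and Pdgfrb and Fn1 were within 2-fold, at −0.73 and −0.52. The part of each cell type in the changes of the members was not tested.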

How the data were processed

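RNA-seq of MEFs in 6C medium on 5 days was analysed, with 1 library per day assigned by its label. The deposited tables hold, per gene and library, expected counts (RSEM's estimated counts, not scaled by the authors for library size), TPM values (scaled by gene length and to 1000000 per library) and FPKM values, which the authors deposited and which were not used. The submitters' processing notes name Bowtie, RSEM and the build mm10, without versions. The TruSeq libraries do not mark strand. Identifiers were matched to GENCODE M21 (27247 of 27729, the rest holding 0.359% of counts).

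TMM factors (edgeR 4.0.16, R 4.3.3) were computed from rounded expected counts. To normalize, the expected counts of a library were divided by its effective size, relative to the geometric mean of all 5. A gene was kept if it reached 10 expected counts in any library. Changes are log2 ratios with a pseudocount of 1, and 95% intervals are exact Clopper-Pearson intervals of count ratios, without a pseudocount. Named were all members, the listed genes with 100 or more counts in at least 1 library, and the 5 genes closest to S100a6. The members and lists were chosen with earlier results of these data known. Alternatives were DESeq2 1.42.0 size factors, TPM, total counts, quantile normalization, other filters, thresholds and pseudocounts, centring on genes of like length, and, added after the data were seen, scaling without the day 2 library and all settings of the steps between days. The computation was tested on simulated data. Software was Python 3.11.15 with pandas 2.3.3, numpy 2.4.6, matplotlib 3.10.9 and scipy 1.17.1.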

Additional observations from a re-analysis of the deposited data

How the results depend on the processing

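With 1 library per day, the counting intervals do not cover differences between cultures or library preparations, and leaving out a replicate was not possible. No paired analysis was possible because each day has 1 library. Pseudocounts of 5 and 0, size factors without Gm42418 and Lars2, and scaling without the day 2 library moved no member's value beyond its counting interval, and DESeq2 size factors moved only that of Anxa2 on day 10, to −1.88. The median change of the 10 members on day 2 (−0.19) was −0.10 with TMM on genes with 10 or more counts in every library, −0.44 with TPM, −0.32 centred on genes of like length, −0.26 with quantile normalization and −0.27 with total counts. In the same order it was −1.63, −1.03, −0.87, −0.97 and −1.36 on day 5 (−1.73), −1.95, −1.01, −1.14, −1.36 and −1.68 on day 10 (−2.15), and −1.30, −0.49, −0.70, −0.83 and −1.07 on day 14 (−1.43). The number of members above day 0 on day 2 was 1 in place of 2 with a 4-fold threshold, TPM, length centring, quantile normalization and total counts. On day 5 it was 1 in place of 0 with length centring, on day 10 it was 1 with TPM and with length centring, and on day 14 it was 1 with TPM and with total counts and 2 with length centring. The number below was 1 in place of 2 on day 2 at 4-fold and 3 with TPM. On day 5 it was 3 in place of 7 at 4-fold, 4 with length centring and 5 with TPM and with quantile normalization. On day 10 it was 5 in place of 8 at 4-fold, with TPM and with quantile normalization, and 6 with length centring. On day 14 it was 4 in place of 6 at 4-fold, with TPM and with length centring, and 5 with quantile normalization. Days 5, 10 and 14 gave 6, 7 and 5 with total counts. TMM on genes with 10 or more counts in every library gave the same. DESeq2 size factors gave 9 on day 10 and 7 on day 14. The number of members below on day 5 against day 2 was 3 in place of 8 with TPM and with length centring, 5 with total counts and 4 with quantile normalization, and the number above was 2 in place of 0 with TPM and 1 with total counts and quantile normalization. On day 10 against day 5 the number below was 1 in place of 5 with TPM and 2 with length centring. S100a13 on day 10 (−1.02) turned to 0.11 with TPM and 0.74 with length centring. S100a6 on day 2 (0.78) was at 0 with quantile normalization. Anxa5 on day 14 ran from −0.55 to 0.35 over the settings and S100a13 from −0.10 to 1.21. The direction on day 14 held under every setting for S100a6 (−3.63 to −2.32), Anxa3 (−4.93 to −4.02), S100a11 (−3.08 to −1.77), S100a4 (−2.43 to −1.12), S100a10 (−1.75 to −0.44), Anxa1 (−1.15 to −0.05), Anxa2 (−1.01 to −0.08) and S100a16 (0.71 to 1.80). The numbers of all genes tested over the threshold at 4-fold were 715, 1161, 1850 and 1560 above and 390, 371, 1057 and 815 below on days 2, 5, 10 and 14. With 50 or more counts 1203 genes were above on day 2 and 1721 on day 5, and with no filter 3529 were above on day 2. With total counts, 5242 genes tested were above and 1929 below on day 10. The alternatives were run for the members and for all genes tested, not for the other lists. The causes of these shifts were not tested.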

Other observations

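Calcium-binding genes outside the S100 and annexin families were counted by normalized counts alone. Of 15 widely expressed EF-hand genes, all passed the filter. On day 14, 1 was over 2-fold above day 0 and 1 below, against 24.5% and 19.9% of all genes tested. The median log2 change of the 15 was −0.13. Capns1, the small subunit of the calpain proteases, was the one below, with normalized counts of 3557 before the medium was changed, 3426 at day 2 and 1902 at day 5, and later 1213 at day 10 and 1623 at day 14 and a change of −1.13 (95% interval −1.21 to −1.05) on day 14. Efhd1, a mitochondrial calcium sensor named after its values were seen, was the one above, with at most 35 expected counts in any library. Of 13 neuronal calcium sensors and buffers, 3 passed the filter. On day 14, 1 of the 3 was over 2-fold above day 0, at a log2 change of 3.31, and 1 was below. Ncs1, a calcium sensor of nerve terminals, had normalized counts of 561 at day 0, 358 at day 2 and 234 at day 5, then 110.0 at day 10 and 83.1 at day 14, with a log2 change of −2.74 (95% interval −3.09 to −2.44) on day 14, and Hpcal1 was at −0.69. The lysosomal protease Ctsb, a ligand of the complex of S100a10 and Anxa2, was highest on day 5 at 1.40 (95% interval 1.35 to 1.45) and at 0.19 (95% interval 0.13 to 0.25) on day 14.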
